A study of Homo sapiens with 4 samples.

Results

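The genes described here drive the cell cycle and DNA replication. They form a list of 41 genes, and a gene was measured if a probe set of the array carried its symbol and no other. Its value is that of its brightest such probe set. All 41 were measured, among 19775 genes in all. They were ordered by phase into 12 genes of the passage from G1 into S, 13 genes of DNA replication and 16 genes of mitosis, the last group taking in entry into mitosis and its checkpoint. The cells were HuH7, a line from a human hepatocellular carcinoma, grown in medium with serum, and the labels name no other treatment. There were 2 arrays (Affymetrix Human Genome U133 Plus 2.0) of KDM6B wild-type cells and 2 of KDM6B knockout cells. KDM6B encodes a histone demethylase. It was targeted with a guide and Cas9 introduced by transfection, and several subclones were then obtained by limiting dilution after G418 selection. Neither the subclone behind each knockout array nor separate cultures within a group are stated, so p-values measure only the spread between these arrays, which may be technical. With no second guide and no rescue, a response to loss of KDM6B and a difference between subclones cannot be told apart. The study asks about KDM6B, G0S2 and lipotoxicity, and the cell cycle genes are not its stated subject.

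Values are log2 expression values as deposited, and a difference is knockout minus wild type on that scale, so 1 is a doubling. KDM6B itself read 8.46 and 8.27 in wild type against 7.95 and 8.14 in knockout, a difference of -0.32 (SE 0.12, limma adjusted p = 0.235, not called). Where the guide cut the gene is not given, so this value does not check the labels. Hepatocyte markers read high in all arrays, with group means between 10.25 and 13.89 for 10 measured markers. Of these, 1 was called higher and 2 lower, or 30%. The share called was 7.07% over all genes and 12.1% over those at or above the median level. Of 16 measured markers of leukocytes, endothelium, fibroblasts and stellate cells, LYZ alone had a group mean above 8 (10.93 in wild type and 9.35 in knockout). LYZ and PECAM1 were called lower and the other 14 were not called, beside 7.07% of all genes called. PTPRC, CDH5, KDR and LUM lay below the 25th percentile of every array. The part of these markers in the results below was not tested.

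Progress through the cycle depends on cyclins, which rise and fall, and on the cyclin-dependent kinases (CDKs) that they activate. D cyclins with CDK4 and CDK6, then E cyclins with CDK2, inactivate the retinoblastoma family and free E2F factors, which switch on genes for DNA synthesis. Origins are licensed by loading of the MCM helicase, and later A and B cyclins with CDK1 drive mitosis under control of FOXM1, the Polo and Aurora kinases and the spindle checkpoint. Transcripts of such genes are abundant in dividing cells and scarce in resting liver.

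Promoters of genes used in different phases are known to carry different elements. Promoters of 300 bases (250 before and 50 after the gene's start) were taken from a RefSeq table of build GRCh38.p14, which matched 32 of the 41 genes. CCND1, CCND2, CCNE2, CDK2, MCM4, MCM5, FOXM1, BIRC5 and AURKA were not matched. Letters of an E2F site (TTTCCCGC, TTTCGCGC, TTTGCCGC or TTTGGCGC on either strand) were found in a promoter of 8 of 11 replication genes (72.7%), 4 of 8 G1/S genes and 1 of 13 mitosis genes, against 3.99% of all 27305 genes of the table. Letters of the cell cycle homology region, or CHR (TTTGAA, either strand), an element known from genes of late phases, were found in 8 of 13 mitosis genes (61.5%), 1 of 11 replication genes and 1 of 8 G1/S genes, against 18.2% of all genes. The CCAAT box, a short letter group bound by NF-Y, was found in 12 of 13 mitosis genes (92.3%), 8 of 11 replication genes (72.7%) and 4 of 8 G1/S genes, against 39.7% of all genes. Letters of different motifs overlapped in 2 of the 50 promoters of these genes. A match is a description and does not show that a factor binds.

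The stretches below are shown because they carry the letters counted above. The first 5, from E2F2 of the G1/S genes and 4 replication genes, hold E2F letters in capitals, and the remaining 5, from mitosis genes, hold CHR letters in capitals. Matches on the opposite strand read in reverse complement (GCGGGAAA and TTCAAA, for example), and further matches in the same stretch are in capitals too.
E2F2 (chr1:23531238-23531305, minus strand): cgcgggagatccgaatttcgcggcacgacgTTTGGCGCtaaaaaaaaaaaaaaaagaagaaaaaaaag
MCM3 (chr6:52284709-52284776, minus strand): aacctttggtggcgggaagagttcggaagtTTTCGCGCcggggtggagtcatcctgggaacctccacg
MCM6 (chr2:135876492-135876559, minus strand): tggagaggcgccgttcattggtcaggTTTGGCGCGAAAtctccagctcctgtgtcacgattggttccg
TYMS (chr18:657584-657651, plus strand): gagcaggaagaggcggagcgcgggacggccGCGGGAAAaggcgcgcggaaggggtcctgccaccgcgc
PCNA (chr20:5126644-5126711, minus strand): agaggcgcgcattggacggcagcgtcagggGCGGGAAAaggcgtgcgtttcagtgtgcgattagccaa
CDC20 (chr1:43358886-43358951, plus strand): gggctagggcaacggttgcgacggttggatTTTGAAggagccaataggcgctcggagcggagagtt
PLK1 (chr16:23678830-23678895, plus strand): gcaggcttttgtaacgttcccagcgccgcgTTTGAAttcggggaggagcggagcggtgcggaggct
CCNB2 (chr15:59105087-59105152, plus strand): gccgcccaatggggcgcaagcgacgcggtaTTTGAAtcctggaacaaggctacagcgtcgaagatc
TOP2A (chr17:40418012-40418077, minus strand): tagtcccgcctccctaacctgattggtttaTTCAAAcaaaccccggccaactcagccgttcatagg
MKI67 (chr10:128126417-128126482, minus strand): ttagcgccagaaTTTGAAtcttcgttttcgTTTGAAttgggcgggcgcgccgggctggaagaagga

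Between knockout and wild type, most of these genes differed little. The cyclin E1 gene CCNE1 rose 1.87-fold and the gene of its kinase CDK2 rose 1.39-fold, and 0 genes fell. Thus 2 of 41 were called (limma, adjusted p under 0.05 over all genes), or 4.88%, against 7.07% of all genes called in either direction, 3.14% higher and 3.94% lower. A share near that of all genes is not a result about the cell cycle genes. The median difference was 0.17 over the G1/S genes, 0.19 over the replication genes and 0.01 over the mitosis genes, against 0.01 over all genes. Of the 41, 29 were higher and 12 lower in knockout, and these counts became 24 and 17 when each array was centred on its median or without knockout 1, and 31 and 10 when quantile normalization was repeated. Groups did not overlap for 23 of the 41, against 45.9% of all genes. Most of the 41 read high, and of the 9888 genes at or above the median level of all genes, 5917 did not overlap and 12.1% were called. Without wild type 2 the median of the replication genes was 0.07 and that of the mitosis genes -0.01. The 95% confidence interval of the difference lay within 1 either way, a doubling or a halving of expression, for 38 of the 41. The exceptions were CCNE1, CCNE2 and CCNA2. In bulk RNA, fewer cells in a phase and less RNA per cell cannot be told apart.

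**Figure D1:**
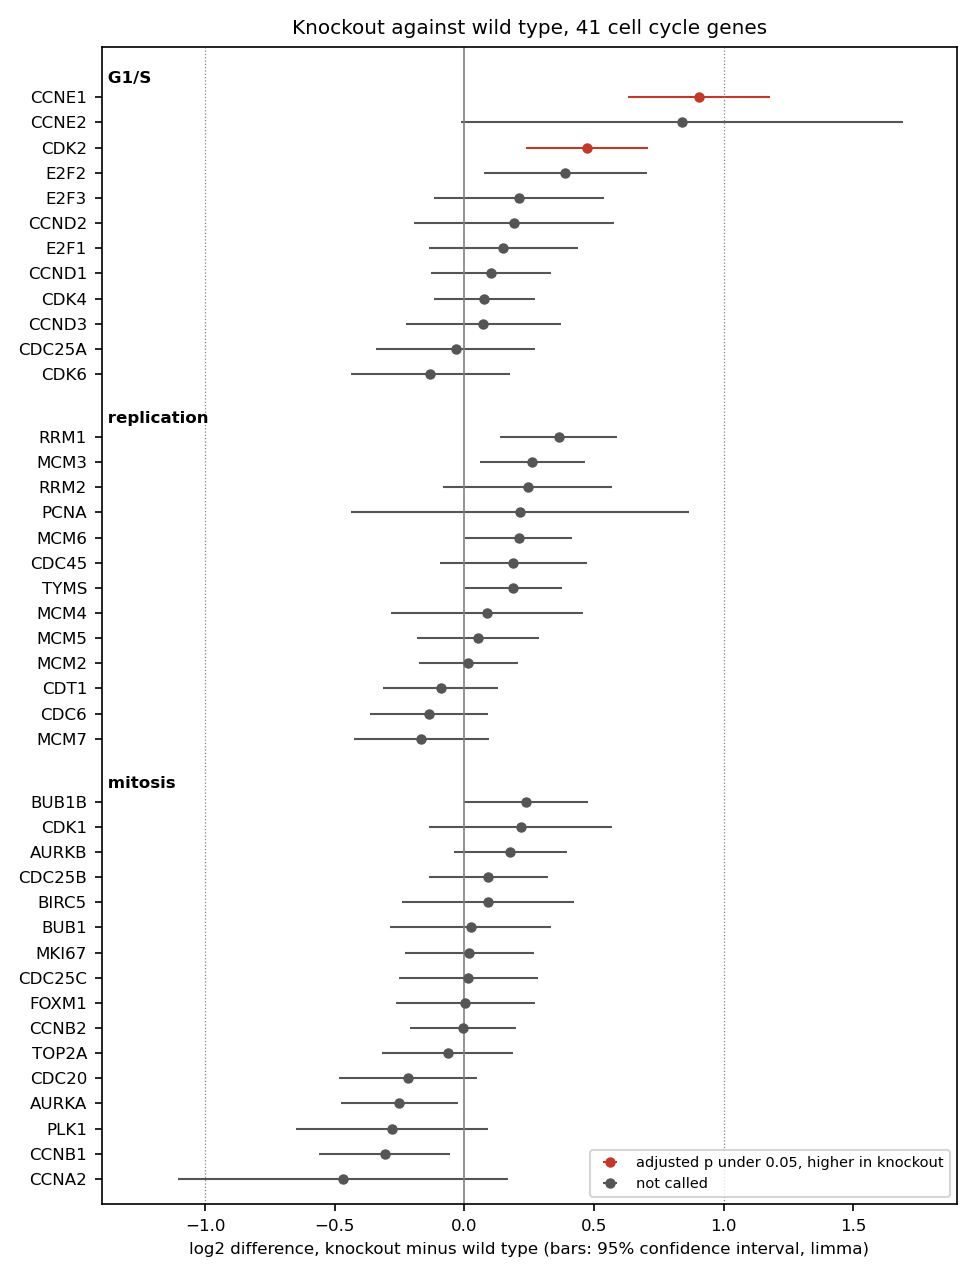
Difference between knockout and wild type (log2, horizontal axis) for each of the 41 genes, grouped by phase and sorted, with 95% confidence intervals from limma as bars and dotted lines at 1 either way. CCNE1 (0.90) and CDK2 (0.47), in red, are the 2 called genes, and the intervals of CCNE2, PCNA and CCNA2 are the widest.

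The 2 called genes encode a G1/S cyclin and its kinase partner. CCNE1, on chromosome 19, read 8.34 and 8.55 in wild type against 9.38 and 9.32 in knockout. The groups did not overlap, and both knockout arrays lay above both wild-type arrays by more than the gaps within groups. The difference was 0.90 (SE 0.11, 95% interval 0.63 to 1.18, limma adjusted p = 0.0123). CDK2, on chromosome 12, read 9.93 in each wild-type array against 10.49 and 10.32 in knockout. Its difference was 0.47 (SE 0.09, 95% interval 0.24 to 0.71, limma adjusted p = 0.0457), close to the threshold. The neighbouring genes of CCNE1 and CDK2 had median differences of -0.06 and 0.06 (up to 10 on each side among genes at or above the median level). The part of the neighbours in these rises was not tested.

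Both calls depended on the probe set and on having all arrays. The second probe set of CCNE1 read 4.04 to 4.44 over the 4 arrays with a difference of 0.00, and the mean of both probe sets gave 0.45 (adjusted p = 0.0915). A second CDK2 probe set gave 0.34 and the dimmest -0.17, and the mean over the 3 gave 0.21 (adjusted p = 0.287). The second CCNE1 and dimmest CDK2 probe sets (means of 4.24 and 4.34) lay below the median level of all genes (6.19). Their signal was therefore not shown to be above background. CDK2 was also not called without the intensity trend in the variance (adjusted p = 0.119) or with each array centred on its median (adjusted p = 0.0664). With any 1 array left out neither gene was called, with adjusted p of 0.057 (without wild type 2) to 0.146 for CCNE1 and 0.186 to 0.307 for CDK2. The differences in these fits, which have a lone array in a group, were 0.80 to 1.01 for CCNE1 and 0.39 to 0.56 for CDK2. The lowest limma adjusted p over all alternatives, 0.00634 for CCNE1 and 0.0156 for CDK2, came from the crossed pairing of arrays chosen after seeing the data. Among planned settings the lowest was 0.00772 for CCNE1, with quantile normalization repeated. For CDK2 it was 0.0368, with only genes at or above the median level.

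The promoter of CCNE1 is shown because this gene had the smallest p of the 41. Capitals mark the 30 bases from the start onward, and the E2F, CHR and CCAAT letters searched are not in this window.
CCNE1 (chr19:29811741-29812020, plus strand): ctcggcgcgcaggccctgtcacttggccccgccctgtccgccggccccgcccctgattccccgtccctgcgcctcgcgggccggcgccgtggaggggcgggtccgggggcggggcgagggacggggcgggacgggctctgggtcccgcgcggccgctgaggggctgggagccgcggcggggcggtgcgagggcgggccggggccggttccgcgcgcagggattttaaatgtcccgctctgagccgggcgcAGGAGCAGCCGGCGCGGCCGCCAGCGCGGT

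The sister gene CCNE2, which encodes cyclin E2, was higher by nearly as much but far less precisely. It read 7.62 and 6.72 in wild type against 7.69 and 8.33 in knockout. The lowest knockout array lay only just above the highest wild-type array, and the wild-type arrays were 0.90 apart. The difference of 0.84 (SE 0.34, 95% interval -0.01 to 1.69) did not pass (limma adjusted p = 0.256). Its second probe set read 4.56 and 4.59 in wild type against 5.08 and 5.10 in knockout, a tighter difference of 0.52 (SE 0.15) that did not pass over all probe sets (adjusted p = 0.141). These values lay below the median level of all genes (6.19), so the signal of this probe set was not shown to be above background.

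Of the genes upstream of cyclin E, 0 were called, against 7.07% of all genes. CCND1 (cyclin D1) read 9.96 and 9.84 in wild type against 9.96 and 10.06 in knockout, with overlapping groups and a difference of 0.10 (SE 0.09, limma adjusted p = 0.668). CCND3 gave 0.07 and CCND2 0.19, the latter with all 4 values between 4.56 and 4.88, below the median level of all genes (6.19), so its signal was not shown to be above background. The D-cyclin kinase genes CDK4 and CDK6 gave 0.08 and -0.13, and CDC25A, which encodes a phosphatase that activates CDK2, gave -0.03. The interval of CDK6 ran from -0.44 to 0.18, and of its 6 other probe sets 4 were lower in knockout too.

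The activating E2F genes were all higher in knockout without passing. E2F1 read 7.98 and 8.10 in wild type against 8.28 and 8.11 in knockout, a difference of 0.15 (SE 0.11, limma adjusted p = 0.588) whose groups were separated only narrowly. E2F2 read 8.33 and 8.31 against 8.86 and 8.57, a difference of 0.39 (SE 0.13, limma adjusted p = 0.157), and its 2 other probe sets gave 0.02 and 0.25. E2F3 gave 0.21. E2F2 is named because its unadjusted p was under 0.05, which was noticed after its values were seen. In all, 8 of the 12 G1/S genes had groups that did not overlap, and all 8 were higher in knockout, where 22.4% of all genes were higher without overlap and 23.5% lower. Of the 9888 genes at or above the median level, 2472 were higher without overlap and 3445 lower.

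**Figure D2:**
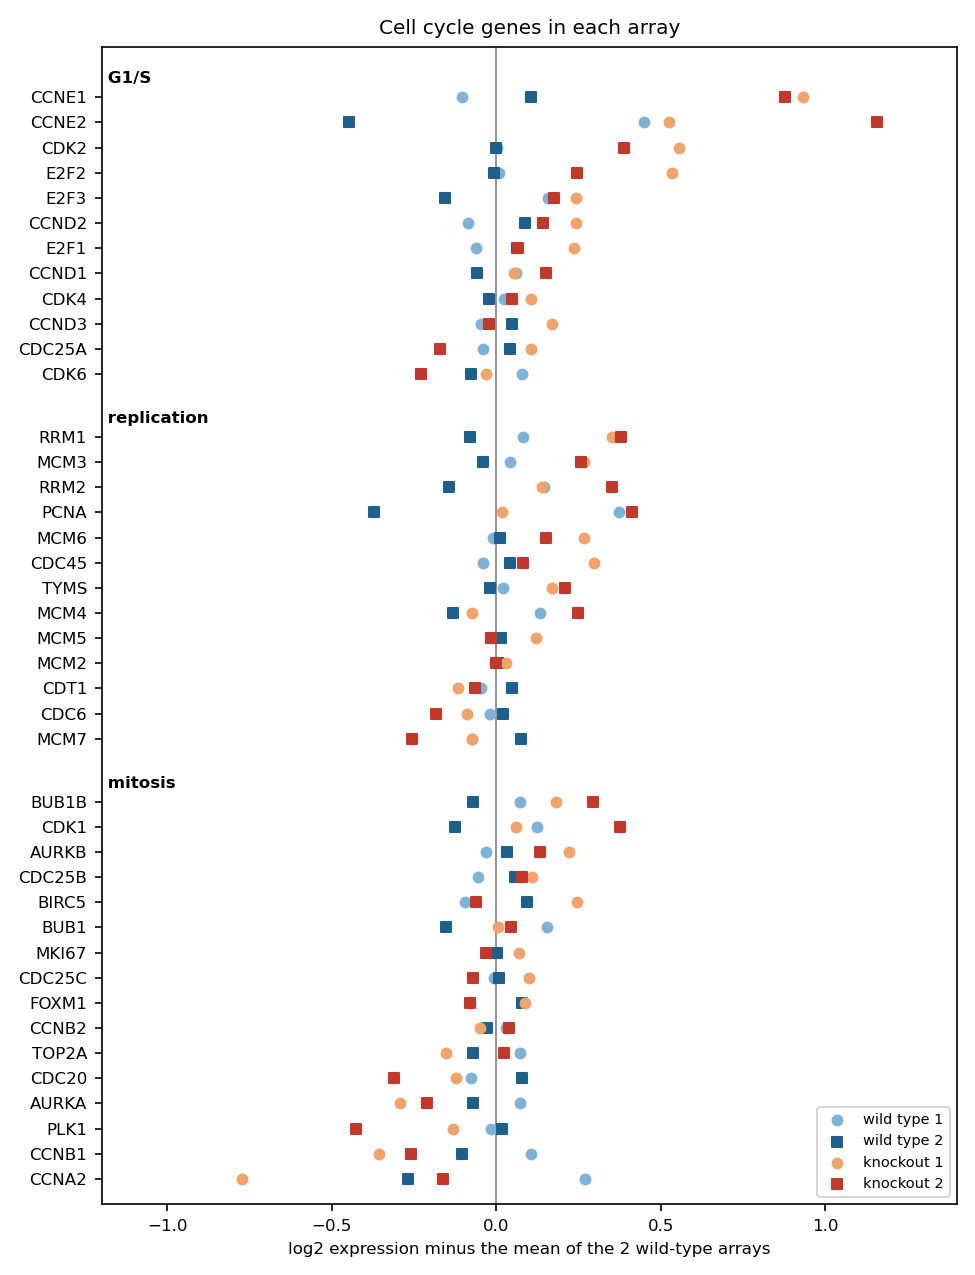
Expression of each of the 41 genes in each array, as log2 value minus the mean of the 2 wild-type arrays (horizontal axis), grouped by phase; blue marks are wild type and orange and red marks knockout. Knockout arrays of CCNE1 stand apart to the right, whereas for PCNA, CCNE2 and CCNA2 the arrays of each group lie far from each other.

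Among the replication genes 0 of 13 were called, against 7.07% of all genes and 12.1% of those at or above the median level. A count of 0 among so few genes is not a result about them. Differences ran from -0.17 (MCM7) to 0.36 (RRM1). Ribonucleotide reductase makes the building blocks of DNA. RRM1, its large subunit gene, read 10.98 and 10.82 in wild type against 11.25 and 11.27 in knockout. The groups did not overlap, and the difference of 0.36 (SE 0.09, 95% interval 0.14 to 0.59) narrowly missed the threshold (limma adjusted p = 0.0815). It passed when quantile normalization was repeated (0.39, adjusted p = 0.0468), and it did not pass under 10 of 13 alternatives. Its lowest adjusted p, 0.0178, came from the crossed pairing of arrays chosen after seeing the data. RRM2, the small subunit gene, read 11.87 and 11.58 against 11.86 and 12.08, a difference of 0.24 (SE 0.13, limma adjusted p = 0.399) with overlapping groups. TYMS, which makes thymidylate, gave 0.19 (SE 0.08, limma adjusted p = 0.248), with 12.19 and 12.16 against 12.34 and 12.38.

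The 6 subunit genes of the MCM helicase lay on either side of 0, and none was called. MCM3 read 10.77 and 10.68 in wild type against 10.99 and 10.98 in knockout, a difference of 0.26 (SE 0.08, limma adjusted p = 0.144) without overlap. MCM6 gave 0.21 (limma adjusted p = 0.24), MCM4 gave 0.09 and MCM5 gave 0.05. MCM2 read 11.19 and 11.20 against 11.22 and 11.19, and its difference of 0.01 had a 95% interval of -0.18 to 0.21. MCM7 was the lowest, at 10.99 and 11.14 against 10.99 and 10.81 (-0.17, SE 0.10, limma adjusted p = 0.484). The licensing factor genes CDC6 and CDT1 gave -0.14 and -0.09, and CDC45, part of the active helicase, gave 0.19. Of the 13 genes of all phases whose promoters hold E2F letters, 9 were higher and 4 lower (10 and 3 with quantile normalization repeated, 8 and 5 with arrays centred). Their differences ran from -0.17 (MCM7) to 0.39 (E2F2), and 0 were called, against 7.07% of all genes.

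PCNA, the sliding clamp of the replication fork and a common marker of S phase, showed how far replicates could differ. It read 12.34 and 11.60 in wild type against 11.99 and 12.38 in knockout. The wild-type arrays enclosed one knockout array and were 0.74 apart, far more than the group difference of 0.21 (SE 0.26, 95% interval -0.44 to 0.87, limma adjusted p = 0.774).

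Among the mitosis genes 0 of 16 were called, against 7.07% of all genes and 12.1% of those at or above the median level. Of the 16, 9 were higher and 7 lower. MKI67, which encodes the proliferation marker Ki-67, read 8.23 and 8.24 in wild type against 8.30 and 8.20 in knockout, with overlapping groups. Its difference was 0.02 (SE 0.10, 95% interval -0.23 to 0.27), and its 3 other probe sets gave 0.11 to 0.25 and were not called. TOP2A, the topoisomerase of mitotic chromosomes, read 11.48 and 11.34 against 11.26 and 11.44 (-0.06, 95% interval -0.32 to 0.19). A second bright probe set gave 0.02 and a dim one, at a mean of 3.70, gave 0.48 (SE 0.18). FOXM1, the transcription factor of late cycle genes, read 9.61 and 9.77 against 9.78 and 9.61 (0.00, 95% interval -0.26 to 0.27). For the brightest probe sets of these 3 markers of proliferation the intervals reached no further than 0.32 either way, whereas that of PCNA ran from -0.44 to 0.87.

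The cyclins and kinases of mitosis went in different directions. CCNA2 (cyclin A2) read 10.81 and 10.27 in wild type against 9.77 and 10.38 in knockout, with overlap and a difference of -0.47 (SE 0.26, 95% interval -1.10 to 0.17, limma adjusted p = 0.408). Its other probe set read 9.74 and 10.06 against 9.58 and 9.08 (-0.57, SE 0.20). In the brighter probe set wild type 1 exceeded wild type 2 and knockout 1 was below knockout 2, and in the other probe set both orders were reversed. The mean of the 2 probe sets, in which these gaps largely cancel, was called lower (-0.52, adjusted p = 0.0212), and CCNA2 was not called under 12 of 14 alternatives. Its lowest adjusted p, 0.00935, came from the crossed pairing of arrays chosen after seeing the data. CCNB1 (cyclin B1) read 12.00 and 11.80 against 11.54 and 11.64 without overlap (-0.31, SE 0.10, limma adjusted p = 0.165), and its other probe set gave -0.54. CCNB2 gave -0.01 (95% interval -0.21 to 0.20). CDK1, the kinase of the B cyclins, read 11.81 and 11.56 against 11.75 and 12.06 (0.22, SE 0.14, limma adjusted p = 0.506), with overlap. Of its 3 other probe sets, 2 bright ones gave 0.35 (SE 0.08) and 0.32 (SE 0.09) without overlap and did not pass over all probe sets (adjusted p = 0.0987 and 0.13), and the dim one gave 0.12.

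Genes of the mitotic kinases and the checkpoint were likewise mixed. PLK1 read 6.68 and 6.71 in wild type against 6.56 and 6.27 in knockout (-0.28, SE 0.15, limma adjusted p = 0.393). AURKA gave -0.25 (limma adjusted p = 0.199) and CDC20, an activator of the anaphase-promoting complex, -0.22, whereas AURKB gave 0.18 and the checkpoint kinase gene BUB1B 0.24 (limma adjusted p = 0.255). BUB1, BIRC5, CDC25B and CDC25C lay between 0.01 and 0.09 in their brightest probe sets. Of the 3 other BIRC5 probe sets, 2 gave 0.11 and 0.40 (SE 0.11) and the dimmest gave -0.01. Those of BUB1 and CDC25C gave -0.21 to 0.12. A second bright AURKA probe set gave -0.37 (SE 0.09) and a dim one -0.25, and the dim second AURKB probe set gave -0.10. None of these other probe sets was called. Groups did not overlap for 7 of the 16, with 3 higher and 4 lower, against 45.9% of all genes (22.4% higher and 23.5% lower). Of the 10 genes of all phases whose promoters hold CHR letters, 6 were higher and 4 lower (7 and 3 with quantile normalization repeated, 4 and 6 with arrays centred). Their differences ran from -0.28 (PLK1) to 0.36 (RRM1), and 0 were called, against 7.07% of all genes.

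**Figure D3:**
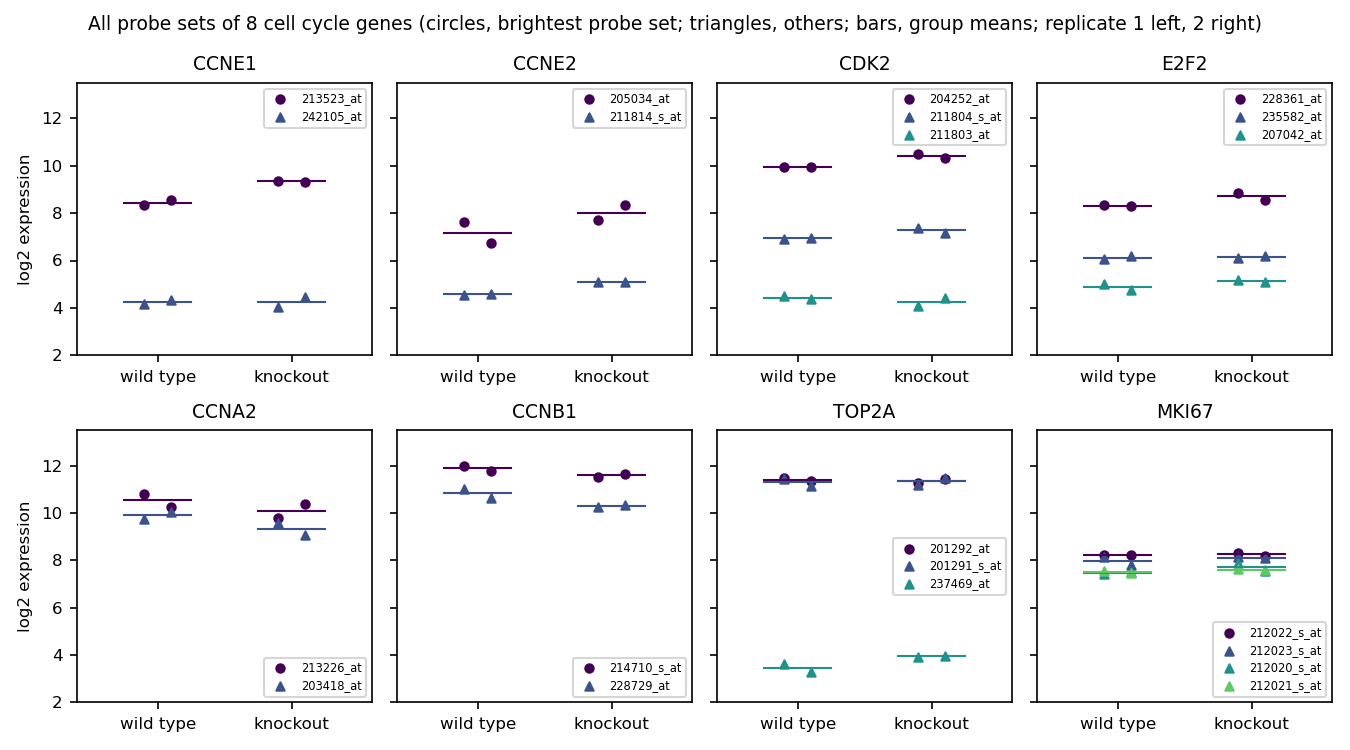
Log2 expression (vertical axis) of every probe set of 8 genes in the 2 groups, with circles for the brightest probe set, triangles for the others and bars for group means; within a group replicate 1 is on the left and replicate 2 on the right. The brightest probe sets of CCNE1 and CDK2 are higher in knockout, and the 2 CCNA2 probe sets are lower in knockout with replicates in opposite order.

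The 41 genes had 99 probe sets, and of the 58 that were not the brightest, 40 had the sign of the brightest, 18 the opposite sign and 0 were called over all probe sets. All probe sets shared 1 sign for 19 of the 31 genes that had several. Replicates of the brightest probe sets had a median SD of 0.09 for wild type and 0.10 for knockout.

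Gaps between replicates were often as large as the differences between groups. For 26 of the 41 (63.4%) the larger gap between replicates exceeded the difference between groups, about the same as the 62.6% of all genes. The gap between the wild-type arrays and the gap between the knockout arrays had opposite signs in 34 of 41 genes (82.9%), against 69.9% of all genes. Across the 41 genes, which share the same 4 arrays and are not independent, these gaps correlated at -0.84, and at -0.55 over all genes. Wild type 1 thus tended to differ from wild type 2 in the way knockout 2 differed from knockout 1, with PCNA, CCNE2, CCNA2 and CDK1 among the clearest cases. The spread of values within an array followed the same order, with SDs over all probe sets of 2.50 in wild type 1 and 2.45 in knockout 2 against 2.41 in each of wild type 2 and knockout 1. With quantile normalization repeated, which removes that difference in spread, the correlation over the 41 genes was -0.85.

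**Figure D4:**
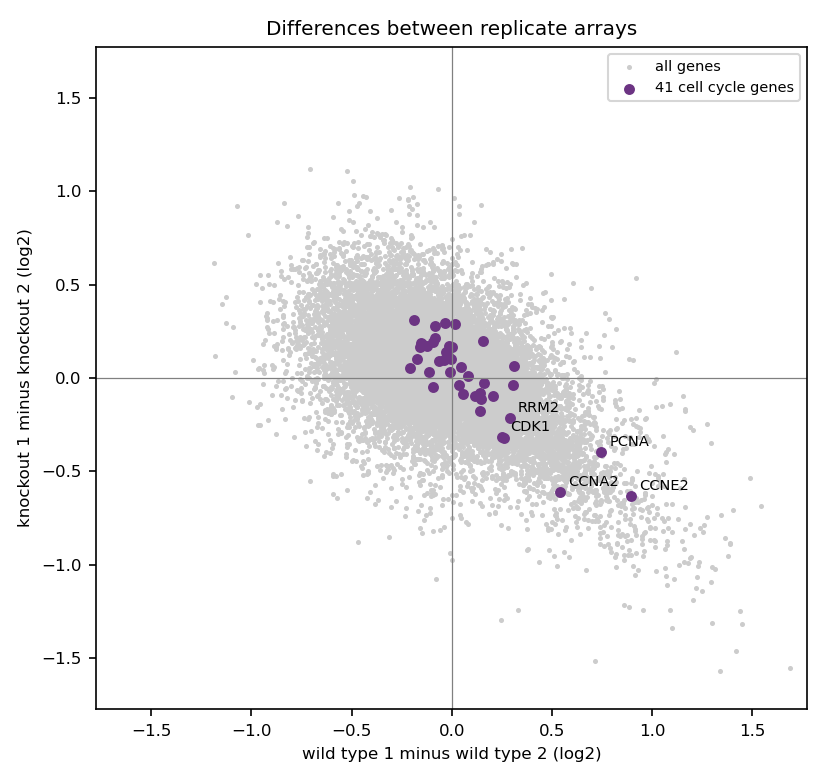
Gap between the wild-type arrays (horizontal axis, log2) against the gap between the knockout arrays (vertical axis, log2) for all 19775 genes in grey and the 41 cell cycle genes in purple. The cell cycle genes run from upper left to lower right (correlation -0.84), with CCNE2, PCNA and CCNA2 farthest out.

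The wider cell cycle network was read from 9 further lists that hold 151 genes, of which 148 were measured. Of these, 6 rose, 8 fell and 134 did not pass. Called genes were 9.46%, against 7.07% of all genes and 12.1% of those at or above the median level. The median difference was 0.02. With 1 array left out the calls among these genes numbered 2 without wild type 1, 1 without wild type 2 and 0 without either knockout array, each such fit leaving a lone array in a group.

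E2F7 and E2F5 had the largest falls. Of 16 measured genes of pocket proteins, E2F factors and their MuvB partners, 2 fell and 0 rose, with a median of -0.32. The calls were 12.5% of the list, against 7.07% of all genes and 12.1% of those at or above the median level. E2F7, an atypical E2F that represses targets of the activating E2Fs, read 7.00 and 6.63 in wild type against 5.24 and 4.87 in knockout, a 3.37-fold fall (-1.75, SE 0.20, limma adjusted p = 0.0106). E2F5, which acts with pocket proteins, read 8.62 and 8.55 against 6.92 and 6.86, a 3.24-fold fall (-1.70, SE 0.10, limma adjusted p = 0.00208). In each case the groups lay far apart, although the dimmer second probe sets, at means of 4.89 for E2F7 and 3.03 for E2F5, gave 0.19 and -0.01. Both knockout values of E2F7 and all values of the second probe sets lay below the median level of all genes (6.19). That signal was not shown to be above background. RB1, the retinoblastoma gene, read 9.59 and 8.53 against 8.02 and 8.84 and did not pass (-0.63, SE 0.41, limma adjusted p = 0.502), and its neighbours on chromosome 13 had a median of -0.44.

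CDK inhibitors restrain the same kinases. Of 6 measured, CDKN2B (p15) and CDKN1A (p21) rose, 0 fell and 4 did not pass, with a median of 0.56. Calls made up 33.3% of these genes, against 7.07% of all genes and 12.1% of those at or above the median level. CDKN2B read 5.61 and 5.41 in wild type against 6.76 and 6.90 in knockout (1.32, SE 0.15, limma adjusted p = 0.00944), while its dimmer probe set gave 0.08. CDKN1A read 8.54 and 8.46 against 9.19 and 9.07 (0.63, SE 0.10, limma adjusted p = 0.0243). CDKN1C (p57) read 5.79 and 5.06 against 6.57 and 6.61 in its brightest probe set, without overlap but not called (1.17, limma adjusted p = 0.057). Of its 4 other probe sets, 3 gave 1.34, 1.44 and 1.52, with limma adjusted p over all probe sets of 0.0104, 0.0216 and 0.022, and the dimmest gave 0.00. In every probe set of CDKN2B and CDKN1C the wild-type values lay below the median level of all genes (6.19). That signal was not shown to be above background. Of 13 measured other G1/S regulators, MYC, a growth transcription factor gene, fell by 1.00 (SE 0.10, limma adjusted p = 0.00722), from 8.95 and 9.04 to 8.03 and 7.95. CDC34, a ubiquitin-conjugating enzyme gene, rose by 0.61 (limma adjusted p = 0.0164) and 11 did not pass. The calls were 15.4% of this list, against 7.07% of all genes and 12.1% of those at or above the median level.

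In the replication lists, 0%, 13% and 18.2% of genes were called in the order below. The share was 7.07% over all genes and 12.1% over those at or above the median level. Of 18 genes of origin licensing and firing, 0 were called. Of 23 genes of polymerases, clamp loader and fork proteins, POLE2, a subunit of polymerase epsilon, rose by 0.62, and RPA1, which coats single-stranded DNA, and the clamp loader gene RFC3 fell by 0.56 and 0.53. Of 11 genes of nucleotide supply and chromatin assembly, the thymidine kinase gene TK1 rose by 0.69, with a second probe set at 0.76, the histone chaperone gene ASF1B rose by 0.57, and 0 fell. TK1, POLE2 and ASF1B all had groups without overlap and limma adjusted p of 0.0301, 0.0169 and 0.0414.

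Each of the 3 mitotic lists had 1 call, or 4%, 4.76% and 6.67% of its genes in the order below. The share was 7.07% over all genes and 12.1% over those at or above the median level. KIF4A, a chromosome kinesin, fell by 0.65 among 25 spindle and kinetochore genes. CDC16, a subunit of the anaphase-promoting complex, fell by 0.55 among 21 genes of checkpoint, complex and cohesion. HASPIN, a histone H3 kinase gene, fell by 0.71 among 15 genes of mitotic kinases and entry. Several fallen genes lay among neighbours that were lower too, with neighbour medians of -0.64 for HASPIN and -0.55 for RPA1, both on chromosome 17, and of -0.48 for RFC3 and -0.41 for CDC16, both on chromosome 13. For E2F5, E2F7, MYC and KIF4A the neighbour medians were -0.04, 0.10, -0.13 and -0.05. Among the called genes that rose they were 0.18 for TK1, 0.15 for POLE2 and 0.10 for CDC34. For CDKN1A, ASF1B and CDKN2B they were 0.01, -0.004 and -0.006. For all 41 core genes the neighbour median was under 0.3 in size. Medians are over up to 10 genes on each side, and the part of the neighbours in these falls and rises was not tested.

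**Figure D5:**
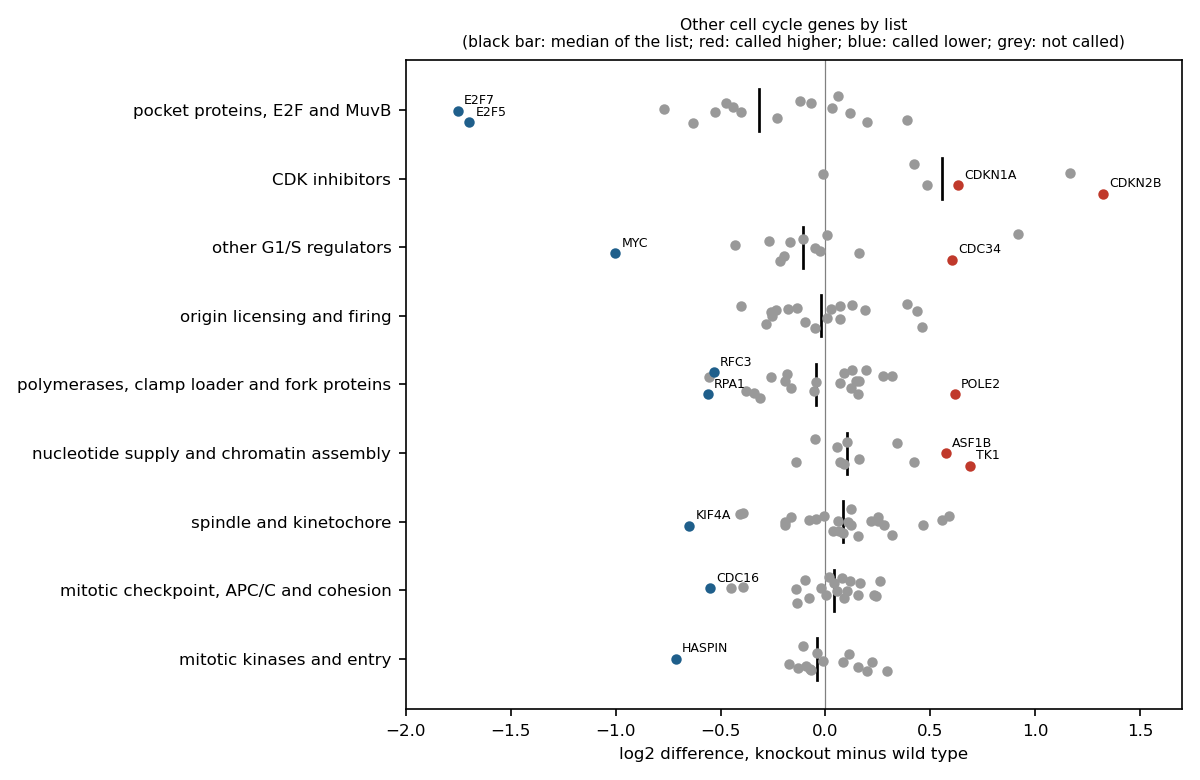
Difference between knockout and wild type (log2, horizontal axis) of the 148 measured genes of 9 further cell cycle lists, with a black bar at each list's median, red for genes called higher, blue for genes called lower and grey for the rest. E2F7 and E2F5 lie farthest to the left and CDKN2B farthest to the right, while the mitotic lists centre near 0.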

How the data were processed

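RNA was cleared of DNA with DNase before labelling with a 3′ kit, per the labels' protocols. The deposited values are log2 expression values of 54613 probe sets, made by the authors with RMA and the affy package, per the submitters' processing notes, version not given in the sources used here. Because RMA usually equalizes arrays, a shift common to most genes may not be seen, and array medians ran from 4.96 to 5.05. Whether other arrays were normalized together is not given. No detection calls were used. Precision is limited by having 2 arrays a group.

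Probe sets with 1 gene symbol in the platform annotation (41091, against 1801 with several and 11721 with none) were kept, and each of 19775 genes took its brightest probe set by the mean of 4 arrays. Groups came from the sample titles. Knockout was compared with wild type with limma 3.58.1 in R 4.3.3 (lmFit, eBayes with intensity trend, 2 residual degrees of freedom), as a two-sided test, p-values being adjusted by the Benjamini-Hochberg method across all genes and calls made at 0.05. An exact permutation test of 2 against 2 cannot go below p = 0.333 and was not run. Lists are described by counts and medians, with no set test. In 10 simulated sets of 19775 genes with 200 changed, limma recovered 41.4% of differences of 1 and 93% of differences of 2 on the log2 scale. Python 3.11.15 searched promoters and drew figures with matplotlib 3.10.9.

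The members and lists were chosen with earlier results of these data known. Named genes were all called members, the 3 largest differences each way per phase, 10 landmark genes, and up to 3 called genes each way per further list. E2F2, RB1, CDKN1C and other genes outside that rule were named after their values were seen. Alternatives covered the variance trend, normalization, a filter on dim genes, the choice of probe set, each array left out, the replicate number as a block and the threshold. A crossed pairing of the arrays was added after the data were seen.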

Additional observations from a re-analysis of the deposited data

How the results depend on the processing

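Of 41 cell cycle genes, 2 were called. The count was 1 without the intensity trend, with arrays centred, without s_at, x_at and a_at probe sets (29 genes tested) and with the most variable probe set (CCNE1 in each), and 1 with the mean of all probe sets, where the call was CCNA2. It was 0 with each array left out and with the replicate block. With all arrays, 9 of the 41 had an unadjusted p under 0.05 in limma, beside 3964 of all 19775 genes. The count of called cell cycle genes was 2 or 3 under the other planned settings. Further cell cycle genes called went from 14 to 4 without the trend, 8 without those probe sets, 25 at adjusted p under 0.10, 2 with the block and 0 to 2 with an array left out. Calls over all genes went from 1399 to 783, 826, 2236, 175 and 37 to 192 in the same order. Fewer arrays were in the fits with one left out, and the lone array of a group was assumed to vary like the other group.

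The numbers of the arrays did not pair them (correlation of replicate gaps -0.55 over all genes). The crossed pairing, chosen after seeing the data, gave 14 cell cycle, 50 further and 3662 calls over all genes.

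The median difference of the G1/S genes was 0.133 to 0.238 over left-out arrays. That of the replication genes, 0.189, was 0.0662 to 0.199 over left-out arrays, 0.158 with arrays centred and 0.143 with the mean of all probe sets. That of the mitosis genes was -0.0477 to 0.032 over left-out arrays, 0.0609 with quantile normalization repeated, -0.0351 without s_at, x_at and a_at probe sets and -0.0481 with the most variable probe set. The cause of these shifts was not tested.

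Of 24 named members, 16 kept their sign throughout, and the other 8, none of them called, changed it in places. With arrays centred FOXM1 gave -0.0273, MCM2 -0.0164 and MKI67 -0.0119. With the most variable probe set AURKB gave -0.0997, CDC25A 0.0186, CDT1 0.0417 and TOP2A 0.485. TOP2A gave 0.148 with the mean of all probe sets, and CDC25A 0.000912 with quantile normalization repeated. With arrays left out, CDC25A ranged from -0.173 to 0.104, FOXM1 from -0.079 to 0.0859, MCM2 from -0.00139 to 0.03, MKI67 from -0.0321 to 0.0699, PCNA from -0.158 to 0.587 and TOP2A from -0.152 to 0.0231. Among the further genes, E2F5 lost its call without knockout 1 or knockout 2 (adjusted p 0.0639 and 0.0619), and E2F7, MYC, CDKN2B and CDKN1A lost theirs with any array left out. Their differences in these fits were -1.73 to -1.67 for E2F5, -1.94 to -1.57 for E2F7, -1.05 to -0.955 for MYC, 1.22 to 1.43 for CDKN2B and 0.57 to 0.695 for CDKN1A.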
